A study of Mus musculus with 2 samples.

Results

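The 10 genes described here, of cell adhesion and tissue residency, were followed across the immune cells of a mouse glioma, out of 32285 genes in the count tables. The rule lists them by symbol and sets no threshold on a measured value: the integrin alpha chains Itgae, Itga1, Itga4, Itgal and Itgax, the integrin beta chains Itgb1, Itgb7 and Itgb2, the transcription factor gene Runx3, and Rgs1, a regulator of G protein signalling. All 10 symbols matched 1 row each in both tables.

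The cells came from brains of mice carrying GL261, a mouse glioma cell line. Each animal received 100000 GL261 cells and then 200 µg of an antibody against the checkpoint receptor PD-1 into the peritoneal cavity on days 10, 13 and 16, and brains were taken on day 20. Leukocytes were enriched on Percoll, blocked with an antibody against CD16 and CD32, sorted as CD45.2-positive living cells and run on the Chromium 5′ platform with a target of 10000 cells. Wild-type animals gave 1 library, and animals with a knockout of Fcgr2b, the gene of an inhibitory receptor for IgG, gave the other. Each library pooled cells from 5 brains. Both groups carried the tumour and both received anti-PD-1, so neither untreated nor tumour-free brain was compared. The knockout was not restricted to a cell type in the labels, and age, sex and background strain were not given there. The wild-type library is labelled polyA RNA and the library labelled Fcgr2b knockout total RNA, and 1 protocol entry names lung although the tissue is brain.

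With 1 library per genotype there is no test between genotypes. Every interval below covers counting error only, at the 95% level, and genotype, library and label differences cannot be told apart. Levels are UMI counts summed over the cells of a class, scaled to the UMI total of that class as CPM, where the total is set to 1000000. A gene was taken as measured in a class where either library reached 50 CPM, and as called when the knockout-labelled and wild-type values differed by 2-fold or more after 10 CPM was added to each.

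Integrins are surface receptors made of 1 alpha and 1 beta chain. The Itgae product, CD103, pairs with the Itgb7 product into a receptor that binds E-cadherin and marks many resident T cells and a class of dendritic cells. The Itga1 product, CD49a, pairs with that of Itgb1 into a collagen receptor, and the Itga4 product pairs with either Itgb1, giving VLA-4, the receptor for VCAM-1 that takes part in the entry of lymphocytes into the inflamed brain, or with Itgb7. Itgal and Itgb2 encode LFA-1, the main receptor for ICAM-1 on leukocytes, and Itgax encodes CD11c, the partner of the Itgb2 product that is used to define dendritic cells. Runx3 encodes a Runt-domain factor of CD8 T cells and NK cells that is known to support Itgae expression and tissue residency. Rgs1 encodes a protein that shortens signalling from chemokine receptors, and it is high in many resident lymphocytes.

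The genes lie on 9 chromosomes of the mouse genome (GRCm38, GENCODE M21 annotation), and all are protein coding. Itgae lies at chr11:73090583-73147446 on the plus strand, Itga1 at chr13:114953096-115101964 on the minus strand, Itga4 at chr2:79255426-79333123 on the plus strand and Itgb1 at chr8:128685654-128733200 on the plus strand. Itgb7 lies at chr15:102215995-102231944 on the minus strand and Itgb2 at chr10:77530252-77565708 on the plus strand. Itgal (chr7:127296260-127335138) and Itgax (chr7:128129547-128150657) both lie on the plus strand of chromosome 7, with 0.794 Mb between them. Runx3 lies at chr4:135120652-135177990 on the plus strand and Rgs1 at chr1:144242296-144249242 on the minus strand. Rgs1 shares chromosome 1 with the targeted gene Fcgr2b (chr1:170958617-170976547), with 26.7 Mb between them.

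The results below dwell on Runx3, lower in all 11 classes where it was measured, and on Itga4, higher in all 7 lymphocyte classes, so the 250 bases before their start sites are shown, 5′ to 3′, from RefSeq (GRCm38.p6). Runx3 has 2 entries, an upstream start at chr4:135120395-135120644 and a downstream start at chr4:135152295-135152544, and the Itga4 window is chr2:79255176-79255425, all on the plus strand. Capitals mark the Runt-domain motif TGTGGT or its reverse complement ACCACA.
Runx3 upstream: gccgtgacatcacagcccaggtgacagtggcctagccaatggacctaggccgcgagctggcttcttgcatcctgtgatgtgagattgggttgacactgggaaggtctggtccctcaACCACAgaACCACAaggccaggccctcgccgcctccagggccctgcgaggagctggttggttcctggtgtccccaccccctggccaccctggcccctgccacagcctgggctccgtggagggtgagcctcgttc
Runx3 downstream: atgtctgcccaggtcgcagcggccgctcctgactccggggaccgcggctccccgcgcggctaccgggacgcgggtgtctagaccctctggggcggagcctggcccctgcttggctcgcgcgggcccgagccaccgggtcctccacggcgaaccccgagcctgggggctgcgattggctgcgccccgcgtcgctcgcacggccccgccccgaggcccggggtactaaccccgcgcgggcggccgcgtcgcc
Itga4: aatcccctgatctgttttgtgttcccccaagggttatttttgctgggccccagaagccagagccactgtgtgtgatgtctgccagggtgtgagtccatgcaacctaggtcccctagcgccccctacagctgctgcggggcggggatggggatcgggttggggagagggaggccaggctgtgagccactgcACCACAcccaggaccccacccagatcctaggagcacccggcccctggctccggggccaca
The upstream Runx3 window holds 2 such motifs and the Itga4 window 1, while the downstream Runx3 window holds none. Of all 32851 windows in the table, 14.0% hold this motif on either strand, and 6 of the 10 genes had a window there. A match is only a match of letters, and counts per gene do not separate the 2 Runx3 starts.

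Across the 2 libraries, 3538 of 3854 wild-type and 8145 of 9194 knockout-labelled barcodes were kept, with a median of 2592.5 and 3948 UMIs per cell. The libraries shared 46 barcodes. Fcgr2b was counted in both: in macrophages or monocytes at 380 CPM in the wild-type and 249 CPM in the knockout-labelled library, and in microglia at 364 and 130 CPM. The labels therefore cannot be checked from the absence of its counts, and the second library is called knockout-labelled throughout. Clusters were named from marker lists that held none of the 10 genes, and 13 classes had at least 50 cells in each library. The class composition differed, with 335 and 3462 macrophages or monocytes and 790 and 379 NK cells. Cd8a was at 803 and 705 CPM in CD8 T cells, Foxp3 at 362 and 241 CPM in regulatory T cells, Xcr1 at 136 and 259 CPM in type 1 dendritic cells and Tmem119 at 707 and 474 CPM in microglia. Mixed T cells are T cell clusters in which neither or both of the Cd8 and Cd4 genes were common, and which were not regulatory or gamma-delta T cells. Throughout, the first value of a pair is wild type and the second knockout-labelled.

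Of the 130 pairs of gene and class, 93 were measured. Of these, 4 pairs were called higher in the knockout-labelled library and 5 lower, and the ratio was above 1 in 48 pairs and below 1 in 45. The higher pairs were Rgs1 in macrophages or monocytes, type 2 dendritic cells and neutrophils, and Itgb2 in neutrophils. The lower pairs were Runx3 in cycling CD8 T cells, mixed T cells and NK cells, Itgal in macrophages or monocytes and Itga1 in neutrophils. For comparison, among all measured genes of each class, 5.65% were called higher and 9.41% lower in macrophages or monocytes, 2.22% and 3.91% in type 2 dendritic cells, and 10.2% and 14.7% in neutrophils. In cycling CD8 T cells the shares were 0.948% higher and 1.78% lower, in mixed T cells 0.786% and 1.64%, and in NK cells 0.987% and 1.37%. None of the measured members was called in the other 7 classes, where the background was 0.66% higher and 1.1% lower in CD8 T cells, 0.754% and 0.875% in conventional CD4 T cells, 0.864% and 0.864% in regulatory T cells, and 4.94% and 5.5% in B or plasma cells. It was 1.17% and 2.27% in type 1 dendritic cells, 3.32% and 3.22% in migratory dendritic cells, and 2.95% and 3.43% in microglia.

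**Figure D1:**
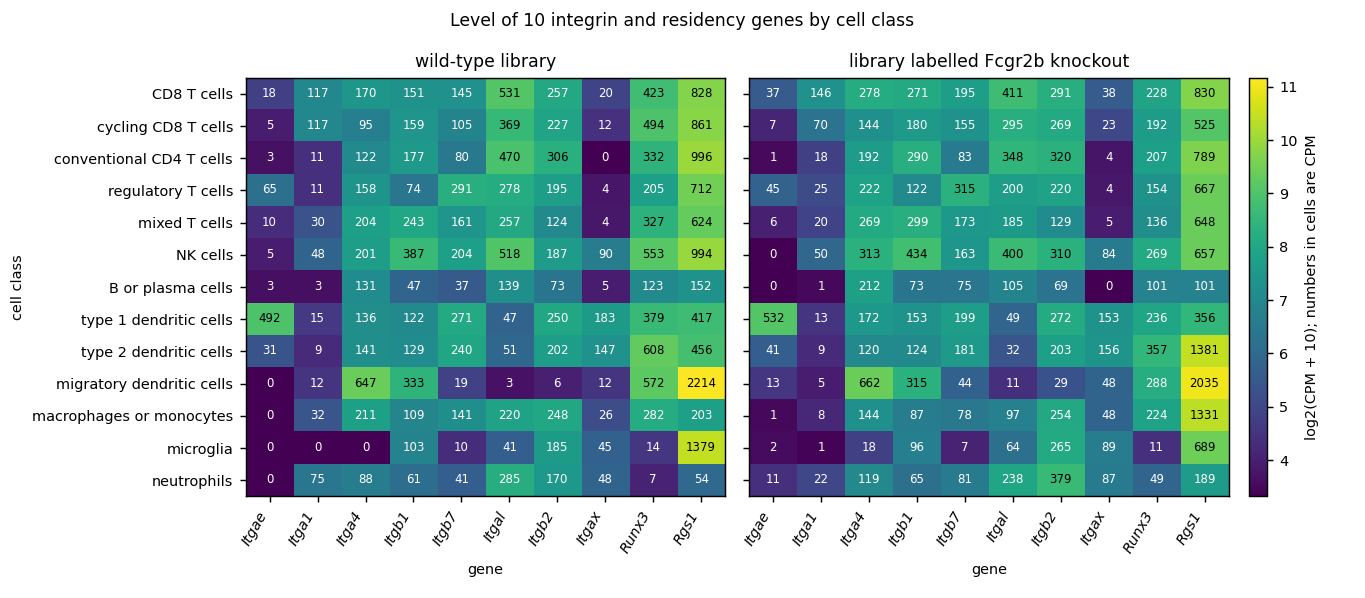
Level of each of the 10 genes (CPM, colour on a log scale) in the 13 compared classes of the wild-type and the knockout-labelled library. Itgae stands out in type 1 dendritic cells (492 and 532 CPM), Itga1 in CD8 T cells (117 and 146 CPM) and Itgax in type 1 and type 2 dendritic cells.

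**Figure D2:**
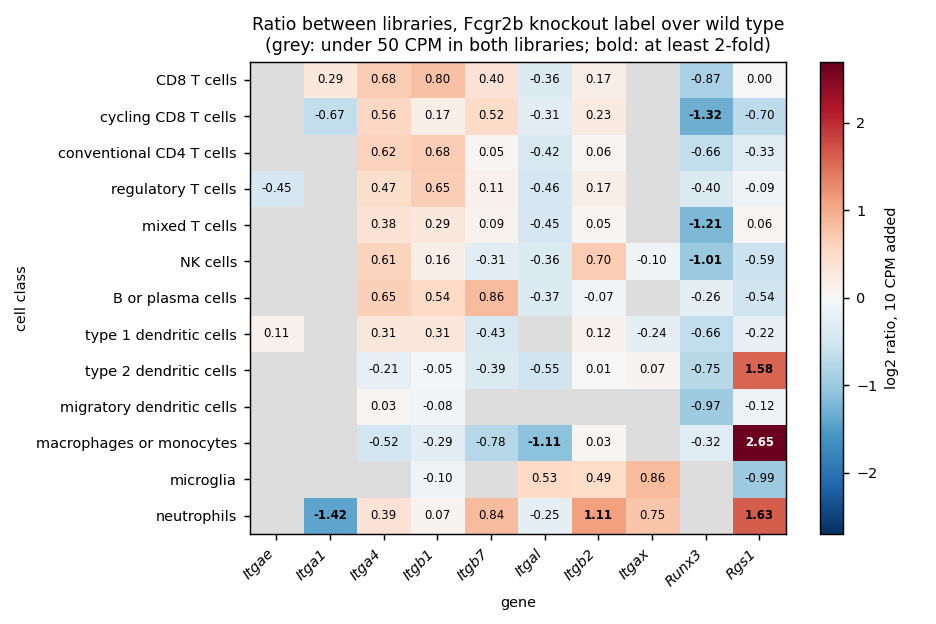
Log2 ratio of the knockout-labelled over the wild-type library for each gene and class, with 10 CPM added to both values. Runx3 lies below 0 in all 11 classes where it was measured, and Rgs1 runs from -0.99 in microglia to 2.65 in macrophages or monocytes.

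Among the compared classes, Itgae was chiefly a gene of type 1 dendritic cells. Type 1 dendritic cells, the cross-presenting class known to carry CD103, held 492 CPM (447 to 541) in the wild-type and 532 CPM (492 to 574) in the knockout-labelled library. The ratio was 1.08 (0.96 to 1.22), so these values did not differ beyond counting error. Regulatory T cells came next among the compared classes, at 64.9 CPM (51.9 to 80.2) and 44.9 CPM (38.0 to 52.7), a ratio of 0.69 (0.53 to 0.91). CD8 T cells followed at 17.9 CPM (12.2 to 25.5) and 37.2 CPM (32.3 to 42.7), below the 50 CPM limit for a measured gene, and type 2 dendritic cells held 30.7 and 41.0 CPM. In the knockout-labelled library the intervals of these 3 classes overlap, while in the wild-type library regulatory T cells stood above both. Conventional CD4 T cells, NK cells, B or plasma cells and macrophages or monocytes were all at or under 5.11 CPM in both libraries.

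The same order held when each cell was thinned to 1000 UMIs so that depth did not set the share of cells with a UMI. An Itgae UMI was then seen in 34 of 103 (33.0%, 24.1 to 43.0) and 36 of 93 (38.7%, 28.8 to 49.4) type 1 dendritic cells. In regulatory T cells the shares were 7.34% (4.6 to 11) and 5.91% (4.08 to 8.25), and in CD8 T cells 2.41% (1.21 to 4.28) and 3.65% (2.68 to 4.86). Macrophages or monocytes gave 0 of 308 cells, with an upper limit of 1.19%, and 0.178% (0.0653 to 0.387). Without thinning, 4.56% and 8.91% of CD8 T cells held an Itgae UMI, at median depths of 2751 and 3655 UMIs.

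Itga1, the collagen-binding chain, marked CD8 T cells. CD8 T cells held 117 CPM (102 to 135) and 146 CPM (136 to 156), and cycling CD8 T cells 117 CPM (94.0 to 143) and 69.5 CPM (62.2 to 77.5). The 2 CD8 classes therefore could not be ordered in the wild-type library, and the cycling cells were the lower in the knockout-labelled one. The ratio was 1.24 (1.06 to 1.45) in CD8 T cells and 0.60 (0.47 to 0.76) in cycling CD8 T cells. With CD8 T cells taken by a gate on Cd3 and Cd8 UMIs of each cell (541 and 1568 cells), the log2 ratio changed from 0.29 to -0.05. NK cells held 48.3 and 49.8 CPM, conventional CD4 T cells 11.3 and 18.2 CPM, and regulatory T cells 11.3 and 24.6 CPM. The lower call in neutrophils rested on 11 and 4 UMIs (74.8 and 21.7 CPM), and its log2 ratio of -1.42 was -0.52 with every cell weighing the same, which ends the call. Thinned to 1000 UMIs, an Itga1 UMI was seen in 9.43% (6.91 to 12.5) of wild-type and 14.1% (12.2 to 16.2) of knockout-labelled CD8 T cells, against 1.62% and 0.830% of macrophages or monocytes.

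The 5 CD8 clusters, made without any integrin gene, differed in both chains. In cluster t04, which held 52.0% and 29.0% of CD8 T cells, Itga1 was at 57.1 and 44.9 CPM and Itgae at 14.3 and 6.1 CPM. In cluster t08, with 4.17% and 19.5% of the cells, Itga1 was at 187 and 233 CPM and Itgae at 51.1 and 118 CPM. Cluster t05 held 149 and 148 CPM of Itga1, and cluster t07 130 and 176 CPM, while Itgae was at 17.0 and 15.1 CPM in t05 and at 27.3 and 53.9 CPM in t07. Itga1 was higher in t05, t07 and t08 than in t04 in both libraries. Itgae was too, but in the wild-type library t05 and t04 were close (17.0 and 14.3 CPM). Wild-type t08 had only 21 cells. The knockout-labelled library held a larger share of its CD8 T cells in t07 (12.9% and 22.0%) and t08 and a smaller one in t05 (30.0% and 23.9%) and t04. Regulatory T cell clusters went in opposite directions for Itgae: 91.9 and 49.3 CPM in cluster t01, and 25.9 and 39.5 CPM in cluster t09.

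**Figure D3:**
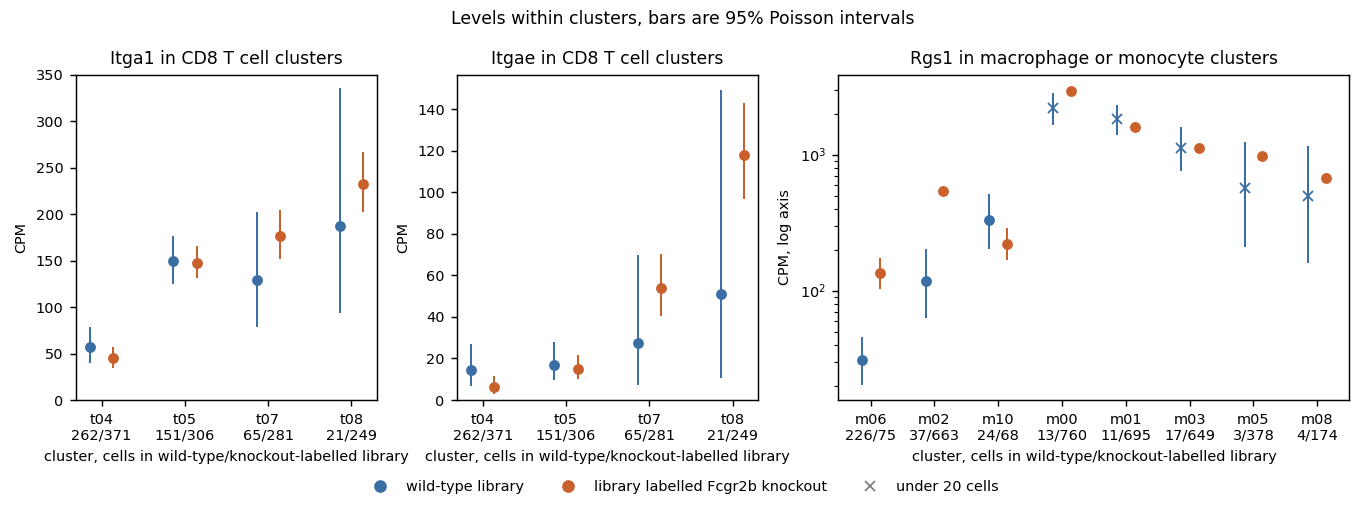
Level (CPM, points with 95% counting intervals) of Itga1 and Itgae in 4 of the 5 CD8 clusters and of Rgs1 in clusters of macrophages or monocytes, in each library. Itga1 and Itgae were lowest in cluster t04 in the knockout-labelled library, and Rgs1 was higher in the knockout-labelled library in cluster m06 (31.2 and 134 CPM) and lower in cluster m10 (332 and 222 CPM).

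The 2 residency chains were seen together in some cells. Among knockout-labelled CD8 T cells thinned to 1000 UMIs, 13 of 45 cells with an Itgae UMI also held an Itga1 UMI (28.9%, 16.4 to 44.3), against 13.6% (11.7 to 15.6) of the 1187 cells without. The wild-type library had only 11 such CD8 T cells, 1 of them with Itga1. Itgb7, the partner of Itgae, was seen in 9 of those 45 knockout-labelled cells (20.0%, 9.58 to 34.6) and in 16.9% of the others. In regulatory T cells Itgb7 accompanied Itgae in both libraries: 11 of 21 wild-type cells with an Itgae UMI held it (52.4%, 29.8 to 74.3) against 27.5% of 265 cells without. In the knockout-labelled library the values were 16 of 32 cells (50%, 31.9 to 68.1) against 28.9% of 509 cells. These shares are descriptions, since the cells of 1 library are not replicates.

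Cells split by these chains also differed in genes of residency and recirculation. In knockout-labelled CD8 T cells with an Itga1 UMI, Ccr7, the receptor that guides T cells to lymph nodes, was at 7.98 CPM against 51.7 CPM in cells without, a ratio of 0.15 (0.056 to 0.34). Xcl1, a chemokine that attracts type 1 dendritic cells, was at 37.3 and 229 CPM in the same split. These genes also differ between CD8 clusters: in the knockout-labelled library cluster t04, lowest in Itga1 of the 4 clusters given above, held 577 CPM of Xcl1 and 131 CPM of Ccr7, against 47.7 and 5.68 CPM in cluster t08, and the part of the clusters in the split was not tested. Inpp4b, a phosphoinositide phosphatase, was higher in the Itga1 cells, at 209 against 127 CPM. The split by Itgae gave the opposite for Ccr7 in the same CD8 T cells, 84.6 CPM with and 44.4 CPM without, a ratio of 1.91 (1.05 to 3.21). Regulatory T cells with an Itgae UMI held more Cxcr6, a chemokine receptor of tissue T cells, in both libraries, at 462 against 128 CPM (ratio 3.61, 2.29 to 5.49) in the wild-type and 294 against 137 CPM (ratio 2.15, 1.49 to 3.03) in the knockout-labelled library. Ccr7 in the same cells went in opposite directions, at 569 against 321 CPM in the wild-type and 81.8 against 224 CPM in the knockout-labelled library. The regulatory T cells with an Itgae UMI were few, as given above, and whether few cells set these Ccr7 values was not tested.

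Itgb7 was highest in regulatory T cells among the compared classes, at 291 CPM (263 to 322) and 315 CPM (296 to 335). Type 1 dendritic cells held 271 CPM (237 to 307) and 199 CPM (175 to 225), and type 2 dendritic cells 240 and 181 CPM. In the wild-type library the intervals of regulatory T cells and type 1 dendritic cells overlap. CD8 T cells held 145 and 195 CPM, a ratio of 1.34 (1.17 to 1.54), and NK cells 204 and 163 CPM, a ratio of 0.80. Both dendritic classes were lower in the knockout-labelled library, with ratios of 0.73 and 0.76, and so were macrophages or monocytes at 141 and 78.3 CPM. Microglia held no more than 10.3 CPM.

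Itga4 was higher in the knockout-labelled library in every lymphocyte class. CD8 T cells held 170 CPM (151 to 190) and 278 CPM (264 to 292), a ratio of 1.64 (1.45 to 1.86). Conventional CD4 T cells held 122 and 192 CPM, regulatory T cells 158 and 222 CPM, and NK cells 201 and 313 CPM. The ratios in these 3 classes were 1.58, 1.41 and 1.55, and none reached the 2-fold call. Over all NK cells the log2 ratio was 0.61. In NK cluster t00, with 97.7% and 58.6% of the NK cells, Itga4 was at 195 and 215 CPM, a log2 ratio of 0.13. No other NK cluster had at least 20 cells in each library. Migratory dendritic cells had the highest level of all classes and the same in both libraries, 647 and 662 CPM. Microglia were near 0, at 0 and 17.7 CPM.

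Itgb1, the partner chain, was also higher in the T cell classes, although in mixed T cells (243 and 299 CPM) the log2 ratio went from 0.29 to -0.06 without doublet removal. CD8 T cells held 151 CPM (133 to 171) and 271 CPM (257 to 285), a ratio of 1.79 (1.57 to 2.05). Conventional CD4 T cells held 177 and 290 CPM and regulatory T cells 74.0 and 122 CPM, with ratios of 1.64 and 1.65. In NK cells, which had the highest level, the values were 387 and 434 CPM, a ratio of 1.12. In cycling CD8 T cells they were 159 and 180 CPM, and the interval of the ratio, 0.94 to 1.38, included 1. Of 2007 genes measured in all 7 lymphocyte classes, 18.3% were higher in all 7, so the shared direction of Itga4 and Itgb1 is not rare among genes. Itga4 was uneven inside CD8 T cells, with a ratio of 0.98 in cluster t04 and 2.22 in cluster t05. In macrophages or monocytes Itga4 was lower over the whole class (211 and 144 CPM), with a log2 ratio of -0.52. It was higher, at 0.71, over clusters m02, m06 and m10, the only ones with at least 20 cells in each library. Each cluster there had the same weight in both libraries, set by its cells in both together (700, 301 and 92).

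Itgal, the LFA-1 alpha chain, was lower in the knockout-labelled library in all 7 lymphocyte classes, although mixed T cells (257 and 185 CPM) went from a log2 ratio of -0.45 to 0.03 at Leiden resolution 2. CD8 T cells held 531 CPM (497 to 567) and 411 CPM (394 to 428), NK cells 518 CPM (485 to 552) and 400 CPM (363 to 440), and conventional CD4 T cells 470 and 348 CPM. The ratios were 0.77, 0.77 and 0.74, and in regulatory T cells 0.72 (278 and 200 CPM). None of these ratios reached the call. Among the 2007 genes measured in all 7 lymphocyte classes, 17.3% were lower in all of them. Migratory dendritic cells had almost no Itgal, at 3.11 and 10.7 CPM.

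In macrophages or monocytes Itgal was called lower, at 220 CPM (193 to 250) and 96.7 CPM (92.0 to 102), a ratio of 0.44 (0.38 to 0.51). Cluster m06 held 67.5% of the wild-type and 2.17% of the knockout-labelled cells, and its own Itgal level was 214 and 232 CPM. With clusters m02, m06 and m10 given the same weights in both libraries, the log2 ratio was -0.15 in place of -1.11. These were the only clusters with at least 20 cells in each library. The weights followed the cells of both libraries together (700, 301 and 92), so m02 weighed most.

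Itgb2, the beta chain of LFA-1 and the partner of CD11c, was broadly spread. It was between 187 and 320 CPM in CD8 T cells, NK cells, conventional CD4 T cells, type 1 and type 2 dendritic cells and macrophages or monocytes in both libraries. NK cells held 187 CPM (168 to 209) and 310 CPM (278 to 345), a ratio of 1.65 (1.41 to 1.93). Within NK cluster t00, which held 97.7% and 58.6% of the NK cells, the values were 182 and 164 CPM, and in cluster t10 (18 and 157 cells) 607 and 584 CPM. The log2 ratio was -0.14 in t00 alone and 0.70 over all NK cells, and t10 had too few wild-type cells for a ratio. The call in neutrophils (170 and 379 CPM, ratio 2.23, 1.39 to 3.68) came from 25 and 70 UMIs. Its log2 ratio of 1.11 was 0.27 with every neutrophil weighing the same, and the call was lost. Summed T cell genes in neutrophils were at 81.6 and 747 CPM (7 and 12 of 12 detected) and summed macrophage genes at 3704 and 5451 CPM (7 and 12 of 12 detected), and their part in the result was not tested. Microglia held 185 and 265 CPM.

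Itgax followed its use as a dendritic cell marker. Type 1 dendritic cells held 183 CPM (156 to 214) and 153 CPM (132 to 177), and type 2 dendritic cells 147 CPM (122 to 177) and 156 CPM (137 to 176), with overlapping intervals in both libraries. NK cells held 90.3 and 83.9 CPM. In microglia the level was 44.6 CPM (23.7 to 76.3) and 89.2 CPM (76.2 to 104), a ratio of 2.0 (1.14 to 3.84) that did not reach the call once 10 CPM was added. Conventional CD4 T cells and regulatory T cells were at or under 4.19 CPM.

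Runx3 was lower in the knockout-labelled library in all 11 classes in which it was measured, and 10 of the 11 intervals excluded 1. NK cells held 553 CPM (519 to 589) and 269 CPM (239 to 302), a ratio of 0.49 (0.43 to 0.56). Cycling CD8 T cells held 494 CPM (446 to 546) and 192 CPM (179 to 204), the lowest Runx3 ratio of any class at 0.39 (0.34 to 0.44). CD8 T cells held 423 CPM (393 to 455) and 228 CPM (215 to 241), a ratio of 0.54 (0.49 to 0.59). Of the 3 calls, that in cycling CD8 T cells held under all 11 alternatives that gave a value. The NK call was lost under 3 of 11, with log2 ratios of -0.95 with median-ratio scaling and -0.92 with 50 CPM added, against -1.01 as reported. The call in mixed T cells (327 and 136 CPM, log2 ratio -1.21) was lost under 3 of 11, with -0.68 at Leiden resolution 2 and -0.87 without doublet removal. In NK cells, cycling CD8 T cells and CD8 T cells the counting intervals of the 2 libraries did not overlap.

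The lower Runx3 level was also seen outside the T and NK lineages. Type 2 dendritic cells held 608 and 357 CPM, migratory dendritic cells 572 and 288 CPM, and type 1 dendritic cells 379 and 236 CPM. Summed T cell genes in type 2 dendritic cells were at 487 and 118 CPM, and free RNA sized from them could give 71.0 and 10.4 CPM of Runx3 there. B or plasma cells, at 123 and 101 CPM, gave the 1 interval that included 1 (0.56 to 1.21). Within clusters the ratio was below 1 in 17 of 17 clusters with enough UMIs, between 0.39 and 0.82, and 16 of these intervals excluded 1. Of 1514 genes measured in the same 11 classes, 12.4% were lower in all 11 and 13.5% higher, so a direction shared by all classes is common in these 2 libraries. No alternative processing changed the sign of Runx3 in any class. Of the other Runt-domain genes and their partner, Runx2 was at 142 and 148 CPM and Cbfb at 108 and 90.7 CPM in CD8 T cells. Runx1 was at 163 and 198 CPM in NK cells, and at 127 and 90.4 CPM in conventional CD4 T cells. With Runx3 counted in, 2 of 3 of these genes had a ratio above 1 in B or plasma cells and 2 of 4 in NK cells. It was 1 of 3 in both CD8 classes, and 1 of 4 in regulatory T cells and in migratory dendritic cells. In every other compared class none did. Besides Runx3, 1 gene was called higher in migratory dendritic cells (background 3.32%) and 1 lower in neutrophils (14.7%).

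**Figure D4:**
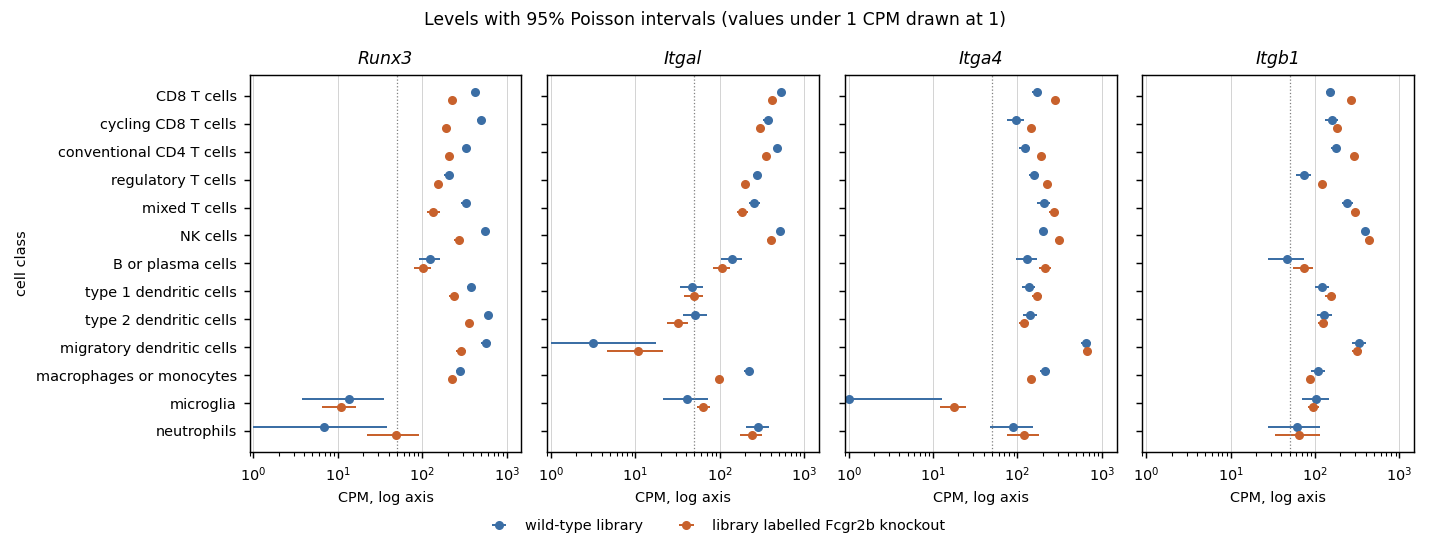
Level (CPM) with 95% counting intervals of Runx3, Itgal, Itga4 and Itgb1 by class in each library. Runx3 was lower in the knockout-labelled library in each class where it was measured (553 and 269 CPM in NK cells), and Itga4 and Itgb1 were higher in CD8 T cells (Itga4 170 and 278 CPM, Itgb1 151 and 271 CPM).

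Rgs1 had the widest range between classes. Migratory dendritic cells held 2214 CPM (2055 to 2383) and 2035 CPM, and conventional CD4 T cells 996 and 789 CPM. CD8 T cells were equal in both libraries, at 828 CPM (785 to 872) and 830 CPM (806 to 854), while cycling CD8 T cells (861 and 525 CPM) and NK cells (994 and 657 CPM) were lower in the knockout-labelled library, with ratios of 0.61 and 0.66. Microglia had the lowest ratio of the gene, 0.50 (0.45 to 0.56), from 1379 to 689 CPM. B or plasma cells were the lowest lymphocyte class, at 152 and 101 CPM.

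The largest difference of any of the 10 genes was Rgs1 in macrophages or monocytes, at 203 CPM (177 to 232) and 1331 CPM (1314 to 1349), a ratio of 6.54 (5.73 to 7.51). The class was made of different clusters in the 2 libraries. Cluster m06 was at 31.2 and 134 CPM and cluster m02 at 118 and 544 CPM, each more than 4-fold higher in the knockout-labelled library. Cluster m10 was lower, at 332 and 222 CPM. Clusters m01 and m03 were at 1826 and 1589 CPM and at 1123 and 1117 CPM. Their wild-type values came from only 11 and 17 cells, against 695 and 649 knockout-labelled cells, too few for a ratio. With clusters m02, m06 and m10 given the same weights in both libraries, the log2 ratio was 1.77 in place of 2.65. The weights followed the cells of both libraries together (700, 301 and 92), so m02 weighed most. Those clusters held 663, 75 and 68 of the 3462 knockout-labelled cells. The other clusters of the class had fewer than 20 wild-type cells and did not enter. Summed macrophage genes in the class were at 12967 and 27126 CPM and summed immediate-early genes at 13224 and 16836 CPM, and their part in the result was not tested. In every other compared class the immediate-early sum was lower in the knockout-labelled library. That held where Rgs1 was called higher, in type 2 dendritic cells (11037 and 9208 CPM) and neutrophils (11526 and 7843 CPM). It also held where Rgs1 was lower, as in microglia (32117 and 22034 CPM).

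Type 2 dendritic cells held 456 CPM (410 to 506) and 1381 CPM (1325 to 1439) of Rgs1, a ratio of 3.03 (2.71 to 3.40). Summed macrophage genes moved with it, at 948 and 2836 CPM, with all 12 detected in both libraries, and summed T cell genes the other way, at 487 and 118 CPM, with all 12 detected. Free RNA sized from the T cell genes alone could give 164 and 47.6 CPM of Rgs1. The macrophage genes did not enter that estimate. The part of macrophages and T cells in the result was not tested. In neutrophils the 54.4 and 189 CPM came from 8 and 35 UMIs. The knockout-labelled value lies under the 298 CPM that free RNA, sized from the T cell genes, could give there.

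Genes of related pathways were read against the same background. Of 12 residency genes, 7 were measured in CD8 T cells and 1 was called higher (background 0.66%), Xcl1, at 38.8 and 202 CPM (ratio 5.20). The median log2 ratio of the 7 was -0.17 against -0.10 for all genes. Xcl1 was uneven between CD8 clusters, at 25.4 and 577 CPM in t04 and 54.6 and 130 CPM in t07. It was at 48.6 and 40.2 CPM in t05 and at 0 and 47.7 CPM in t08. Bhlhe40 was at 702 and 559 CPM, Nr4a1 at 363 and 307 CPM and Prdm1 at 68.3 and 52.1 CPM. In regulatory T cells 1 of 7 was called higher (background 0.864%), Ahr, a ligand-activated factor of tissue lymphocytes, at 43.0 and 126 CPM (ratio 2.93). None of 6 was called in NK cells. Residency genes called elsewhere were 1 of 4 higher in B or plasma cells (background 4.94%) and in migratory dendritic cells (3.32%). In type 2 dendritic cells 1 of 5 was called lower (3.91%). Of 10 egress and recirculation genes, none of 3 measured in CD8 T cells was called, with S1pr4, a receptor for sphingosine 1-phosphate, at 55.6 and 84.7 CPM and Klf2, a transcription factor of recirculating T cells, at 197 and 165 CPM.

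Other integrin chains were called in few places. In NK cells Itgam, the CD11b chain, was called higher at 40.9 and 145 CPM (ratio 3.54), 1 of 4 measured (background 0.987%). Itga2, a marker of NK cells, stood at 56.8 and 96.8 CPM. Within cluster t00 Itgam was at 39.2 and 50.9 CPM and Itga2 at 54.2 and 59.3 CPM. Cluster t10, with 2.28% and 41.4% of the NK cells, held 162 and 321 CPM of Itgam. In microglia Itga6, a laminin receptor chain, was called lower at 247 and 57.0 CPM, 1 of 5 (background 3.43%), whereas Itgb5 was at 539 and 507 CPM. In neutrophils, of 3 other integrins measured, 1 was called higher and 1 lower, with a background of 10.2% and 14.7%. Regulatory T cells held 402 and 417 CPM of Itgav and 78.5 and 126 CPM of Itgb8, the chains that together activate latent TGF-beta. Among 14 genes of integrin activation none of 11 measured in CD8 T cells was called, with Rasgrp1 at 130 and 83.8 CPM and Tln1, encoding talin, at 244 and 298 CPM. Elsewhere 1 of 9 was called lower in macrophages or monocytes (background 9.41%), where no ratio was above 1. Called higher were 1 of 8 in microglia (2.95%), 1 of 7 in migratory dendritic cells (3.32%) and 1 of 10 in neutrophils (10.2%). In neutrophils all 10 ratios were above 1. Among 10 ligand genes, 1 of 2 was called higher in NK cells (background 0.987%) and in conventional CD4 T cells (0.754%). Called lower were 2 of 5 in microglia (3.43%) and 1 of 3 in type 2 dendritic cells (3.91%). So was 1 of 2 in migratory dendritic cells (3.22%) and in neutrophils (14.7%). In macrophages or monocytes 4 were measured, of which 1 was called higher and 2 lower (5.65% and 9.41%). Fn1, encoding fibronectin, was lower at 883 and 178 CPM, and in cluster m06 alone it was at 1112 and 622 CPM. F11r, encoding a junctional adhesion molecule, was lower at 53.6 and 19.5 CPM, and Spp1, encoding osteopontin, higher at 74.9 and 160 CPM. Among relatives of Rgs1, Rgs10 was called higher in CD8 T cells at 30.1 and 74.8 CPM and in type 2 dendritic cells at 37.1 and 94.1 CPM, and Rgs2 was called lower in microglia at 1365 and 543 CPM.

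Across the 26 values of 13 classes in 2 libraries, the patterns of some of the 10 genes resembled each other, as a description over points that share libraries and depth. The Pearson correlation of log2 levels was 0.66 between Itga1 and Itgal, 0.65 between Itga4 and Runx3, 0.62 between Itgal and Itgb2 and 0.57 between Itgae and Itgb7. Among 6346 genes, the closest to Itgal were Cab39, Spn and Kcnab2, at 0.93, 0.90 and 0.88. The closest to Itga1 were Atp8b4, Gzma and Arhgap9, at 0.87, 0.85 and 0.82. Itgae was closest to Sept3, Mycl and Fndc5, at 0.85, 0.84 and 0.84, and Runx3 to Lrrc8c, Fyn and Tmsb10, at 0.87, 0.84 and 0.83. Itga4 was closest to Cytip, Gpr132 and 4930523C07Rik, at 0.83, 0.81 and 0.81, and Itgb1 to Il12rb2, Serpinb6b and Tcf7, at 0.85, 0.82 and 0.80. Itgb7 was closest to Iqgap2, Tmsb10 and Pin4, at 0.85, 0.77 and 0.76. For Itgb2 the closest were Lamtor4, Wdr83os and Ssbp4, at 0.82, 0.80 and 0.79, for Itgax they were Slc25a33, Tyrobp and Fgl2, at 0.86, 0.80 and 0.80, and for Rgs1 they were Id2, Mink1 and H2-K1, at 0.80, 0.79 and 0.78.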

How the data were processed

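Single-cell RNA was measured in 2 samples, 1 library each. The authors deposited UMI counts per gene and cell, made with Cell Ranger 6.1.2 per the file headers, on mm10 (GRCm38) per the submitters' processing notes. An annotation release was not stated. The smallest barcode held 500 UMIs, and the deposited counts were not normalized.

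Cells with under 200 genes or over 10% mitochondrial UMIs were left out, and simulated doublets were used to remove 3.25% of wild-type and 7.66% of knockout-labelled cells. The 2 libraries were clustered together, T and NK cells (t) and most myeloid cells (m) then again on their own (2000 variable genes without the 10 genes or any other integrin, 30 components, 15 neighbours, Leiden resolution 1; leidenalg 0.10.2, scikit-learn 1.9.0, Python 3.11.15), giving 32 clusters, named from 24 marker lists. CPM per class has exact Poisson intervals, ratios exact conditional ones and shares of cells Clopper-Pearson ones, at 95%. Shares used cells thinned to 1000 UMIs. A share of 0 over a whole library allows up to 0.0848% (wild-type) or 0.0368% (knockout-labelled). No p-values were computed, and the interval code was tested on simulated data.

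The text names all 10 genes, some of the other integrins from 50 CPM, genes of each list with the largest ratios in some classes, and the 3 genes most alike in pattern. A gene of the recirculation list is not reported here. The members and lists were chosen with earlier results of these data known.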

Additional observations from a re-analysis of the deposited data

Results flagged for a closer look

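For 3 of the genes the lower bound of the counting interval in cells that the comparisons did not use, because a class had fewer than 50 cells in a library or no name, lay above the level of every compared class of the same library. Rgs1 in wild-type basophils was at 6736 CPM (6388 to 7097, 1407 UMIs in 105 cells), against 2214 CPM in the highest compared class, migratory dendritic cells. Itgb7 in knockout-labelled gamma-delta T cells was at 426 CPM (324 to 550, 59 UMIs in 36 cells), against 315 CPM in regulatory T cells. Itga1 in the wild-type cells of unnamed cluster t13 was at 230 CPM (180.0 to 291, 71 UMIs in 24 cells), against 117 CPM in CD8 T cells. The median depth of the 24 wild-type cells of t13 was 9238.5 UMIs. Each comparison was across cell classes within a library, without a test.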

How the results depend on the processing

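Of the 93 pairs of gene and class, 69 kept the sign of the log2 ratio under every setting that gave them a value, 9 to 12 for each pair. The number of pairs called higher, 4 as reported, was 7 with a minimum of 20 CPM, 2 with at least 500 genes per cell and 2 with neutrophils left out, an alternative chosen after seeing the data. The number called lower, 5 as reported, was 3 with median-ratio scaling, 2 with 50 CPM added and 3 with at least 500 genes per cell. In the remaining settings the counts stayed within 1.5 times of those reported. Fewer pairs were measured with at least 500 genes per cell (85), and neutrophils then had too few cells; otherwise the cause was not tested. Ratios moved by more than their counting error most often with the same cluster weights in both libraries (16 pairs), with per-cell means (14) and with median-ratio scaling (10). The setting with the same cluster weights weighted each cluster by its cells in both libraries together. It used only clusters with at least 20 cells in each library, and so only part of some classes. Rgs1 in CD8 T cells had a log2 ratio between -0.19 and 0.12, and it changed sign under 7 settings. No paired analysis was possible because each genotype has 1 library, and no replicate could be left out. Few UMIs limit the neutrophil values: Itga1 there had 11 and 4, and Rgs1 8 and 35.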

Other observations

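Several of the genes were also counted in cells outside the compared classes, where numbers were small in at least 1 library. Mast cells (79 and 11 cells) held 324 and 248 CPM of Itgb7, 321 and 281 CPM of Runx3 and 1143 and 1090 CPM of Rgs1. Plasmacytoid dendritic cells (48 and 93 cells) held 715 and 395 CPM of Runx3 and 167 and 116 CPM of Itgax. Gamma-delta T cells (36 and 36 cells) held 120 and 93.9 CPM of Itgae, more than regulatory T cells, together with 403 and 426 CPM of Itgb7, 610 and 303 CPM of Runx3 and 1872 and 989 CPM of Rgs1. Basophils (105 and 13 cells) held 249 and 263 CPM of Itgb7 and 6736 and 5791 CPM of Rgs1.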
